A study of Mus musculus with 2 samples.

Results

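Microglia in S phase, the stretch of the cell cycle in which the genome is copied, were described in 2 single-cell libraries of sorted microglia, 1 for the medial and 1 for the lateral part of the corpus callosum. A cell was counted as an S phase cell when it held at least 3 unique molecular identifiers (UMIs, counted RNA molecules) from at least 2 of the genes Rrm2, Tyms, Tk1, Hells, Clspn, Uhrf1, Mcm5, Mcm6, Cdc6 and Dtl. It also had to hold fewer than 3 UMIs in all from the G2 and M phase genes Top2a, Ccnb1, Ccnb2, Cenpf, Cenpe, Ube2c, Birc5, Plk1, Tpx2 and Cdk1. The rule took 224 of 4439 kept cells, 95 of 2131 medial and 129 of 2308 lateral ones. They were set against the 752 medial and 846 lateral cells with 0 UMIs of both gene sets, called set-negative cells below. For the direction of the cycle they were also set against 325 medial and 396 lateral cells, called G2 or M cells. Those held at least 3 UMIs from at least 2 genes of the G2 and M set.

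The mice behind both libraries were C57Bl6 animals with the genotype label CX3CR1 that had eaten cuprizone over 4 weeks. This compound chelates copper and leads to loss of oligodendrocytes and myelin in the callosal white matter, where microglia, the resident macrophages of the brain, divide and clear debris. Neither the allele nor the number of mice per library nor the sorting gate is given in the sources used here. With 1 library per region there were no replicates, cells are not replicates, and no test was possible.

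During G1 the MCM proteins are loaded onto replication origins as an inactive helicase by ORC, CDC6 and CDT1. Cyclin D and E kinases then release E2F factors from RB, and E2F activates genes for the helicase, the polymerases, the sliding clamp PCNA and the enzymes that make deoxynucleotides. New histones and chaperones rebuild chromatin behind the fork, and geminin keeps origins from being licensed again until mitosis. Microglia in healthy adult brain seldom divide, while demyelination is known to make them proliferate.

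Levels are given as UMIs of a gene, summed over the cells of a class in 1 library, scaled to the total UMIs of those cells as counts per 1000000 (CPM). Ratios are given on the log2 scale, S phase cells over the comparison cells of the same library. Every range in parentheses is a 95% exact interval that covers counting error only, not the spread between mice.

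The libraries held 28660496 medial and 27955414 lateral UMIs, of which 81.8% and 82.4% lay in kept cells, with medians of 10732 UMIs per medial and 9694 per lateral kept cell. A total of 7 barcodes occurred in both libraries, among them 1 medial and 0 lateral S phase cells. A doublet caller, Scrublet, marked 5 barcodes in each library, 1 of them an S phase cell in each, and none was removed. Among barcodes with at least 500 and under 2400 UMIs, too shallow to be kept, 1 of 225 medial and 2 of 208 lateral ones met the rule.

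S phase cells made up 4.46% of medial kept cells (3.62% to 5.42%) and 5.59% of lateral ones (4.69% to 6.61%). The ratio of the shares, medial over lateral, was 0.798 (0.605 to 1.05), a range that counts cells of 1 library each and says nothing of other mice. Another 172 medial and 198 lateral cells met the S phase count but also held 3 or more UMIs from at least 2 genes of the G2 and M set. Whatever their G2 and M UMIs, 271 medial and 330 lateral cells met the S phase count, 12.7% and 14.3% of kept cells. With at least 4 UMIs from at least 3 genes required, 50 medial and 62 lateral cells were left.

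S phase cells were deeper than the cells they were compared with. The median S phase cell held 14561 UMIs if medial and 12426 if lateral, against 8895.5 and 7413.5 UMIs in set-negative cells. Among cells of 2400 to 6000 UMIs, 0.765% of medial and 3.51% of lateral cells met the rule, while among cells of 12000 to 20000 UMIs 7.09% and 10.6% did. Above 20000 UMIs it was 13.7% and 7.69%, so cells above 12000 UMIs met the rule more often than shallower ones in both libraries. After every cell was thinned to 2400 UMIs, 25 medial and 31 lateral cells still met the rule, 1.17% and 1.34% of kept cells. Mitochondrial UMIs stood at medians of 2.25% medial and 2.64% lateral in S phase cells, against 2.25% and 2.55% in set-negative cells.

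**Figure D1:**
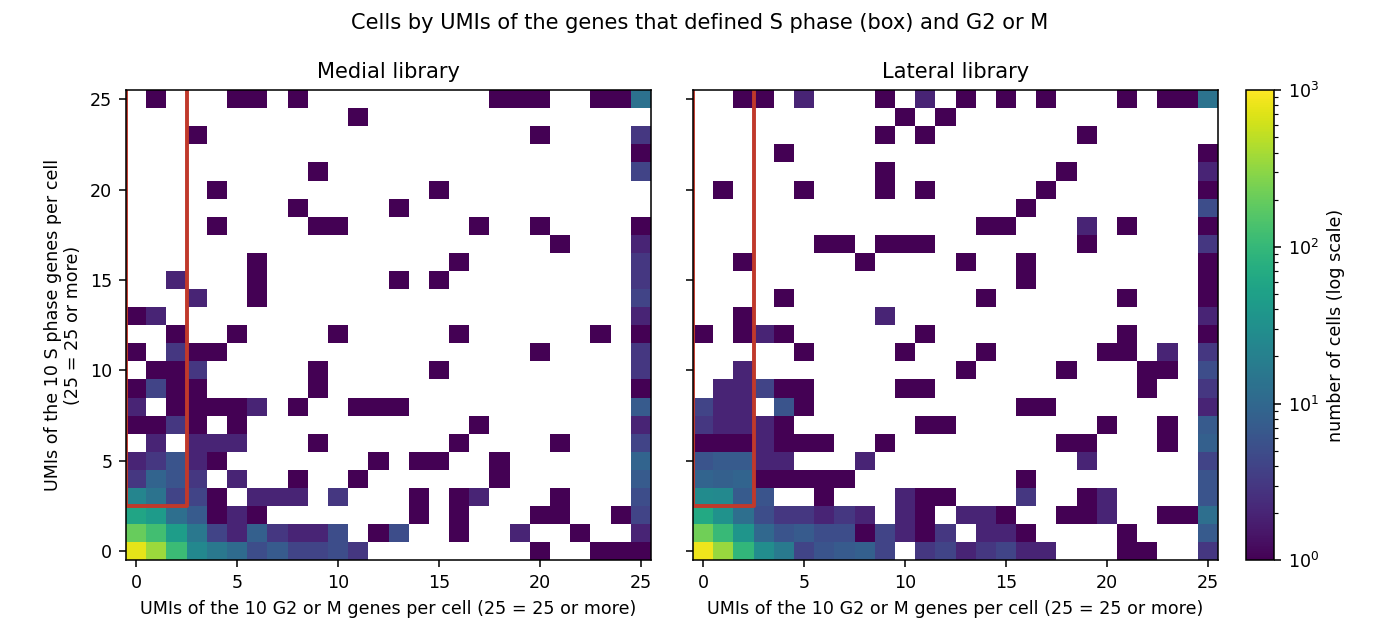
Number of kept cells by their UMIs of the 10 G2 and M genes (horizontal axis) and of the 10 S phase genes (vertical axis), medial left and lateral right, on a logarithmic colour scale. The outlined region holds the 95 medial and 129 lateral S phase cells, most of them close to its edge at 3 UMIs. It also holds 4 medial and 7 lateral cells with all their S phase UMIs from 1 gene, which the rule leaves out.

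Most members sat near the edge of the rule. The S phase genes gave a median of 4 and at most 25 UMIs per S phase cell, and 38 medial and 53 lateral members held exactly 3. Just outside, 113 medial and 110 lateral cells held exactly 2. On the other edge, 28 medial and 36 lateral members held exactly 2 UMIs of the G2 and M set, and 21 and 20 cells that met the S phase count were left out with exactly 3.

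The 10 S phase genes chose the members, so their values describe the choice and were not tested. Mcm6 and Mcm5, subunits of the replicative helicase, had UMIs in most members. Mcm6 was seen in 76 of 95 medial and 87 of 129 lateral S phase cells, at 103 and 97.3 CPM, and Mcm5 in 57 and 88 cells, at 71.8 and 92.4 CPM. Tyms, thymidylate synthase, was seen in 52 medial and 52 lateral S phase cells, at 56.7 and 44.9 CPM, against 38.5 and 43.4 CPM in free RNA and 119 and 145 CPM in cells that met both counts. Hells, a chromatin remodeller of the SNF2 family, stood at 47.4 CPM in both libraries, with UMIs in 39 and 51 cells. Uhrf1, which guides DNA methylation at hemimethylated sites, stood at 27.3 and 38.7 CPM. Tyms, Hells, Uhrf1 and Mcm5 are named as markers of these cells but also belong to the rule, so their presence is no check of the label, which stands for what the rule selects.

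Rrm2, another marker, was below its level over all kept cells. This gene for the small subunit of ribonucleotide reductase, which makes deoxynucleotides, had UMIs in 19 of 95 medial and 22 of 129 lateral S phase cells, at 17.9 and 18.1 CPM. Over all kept cells it stood at 29.6 CPM medial and 34.1 CPM lateral, and in barcodes of at most 100 UMIs, which hold free RNA, at 35.8 and 42.7 CPM. The cells that met both counts held far more, 215 CPM medial and 231 CPM lateral. Tk1, thymidine kinase, was split in the same way, at 24.4 and 16.2 CPM in S phase cells and 112 and 116 CPM in cells that met both counts. Mcm5 and Mcm6 differed little between these classes: in cells that met both counts Mcm5 stood at 81.5 and 101 CPM, and Mcm6 at 82.2 and 99.2 CPM.

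Promoters of 4 helicase and remodeller genes are shown as examples of windows that hold words of the kind E2F binds, E2F being the factor known to activate such genes; Mcm5, Mcm6 and Hells belong to the rule, and Mcm3 does not. The words TTTCCCGC, TTTCGCGC, TTTGCCGC and TTTGGCGC were searched on both strands in windows of 300 bases, 250 before to 50 after the gene start, printed 5′ to 3′ on the gene's strand from RefSeq, build GRCm38.p6. The windows lie at chr8:75109259-75109558 (Mcm5, plus strand), chr1:128359656-128359955 (Mcm6, minus strand), chr1:20820263-20820562 (Mcm3, minus strand) and chr19:38930740-38931039 (Hells, plus strand). Capitals mark the words found on either strand, and adjacent words may overlap.
Mcm5: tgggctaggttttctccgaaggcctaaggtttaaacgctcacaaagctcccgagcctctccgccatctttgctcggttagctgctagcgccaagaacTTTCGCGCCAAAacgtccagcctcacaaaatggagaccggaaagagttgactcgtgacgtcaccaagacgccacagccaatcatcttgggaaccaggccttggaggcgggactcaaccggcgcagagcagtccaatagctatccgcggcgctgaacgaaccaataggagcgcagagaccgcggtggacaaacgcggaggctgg
Mcm6: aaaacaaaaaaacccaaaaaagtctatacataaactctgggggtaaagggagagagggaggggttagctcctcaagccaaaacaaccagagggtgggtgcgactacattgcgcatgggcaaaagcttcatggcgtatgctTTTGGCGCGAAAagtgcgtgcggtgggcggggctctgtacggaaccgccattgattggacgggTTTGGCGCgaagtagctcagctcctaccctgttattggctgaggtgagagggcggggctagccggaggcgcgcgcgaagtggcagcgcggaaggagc
Mcm3: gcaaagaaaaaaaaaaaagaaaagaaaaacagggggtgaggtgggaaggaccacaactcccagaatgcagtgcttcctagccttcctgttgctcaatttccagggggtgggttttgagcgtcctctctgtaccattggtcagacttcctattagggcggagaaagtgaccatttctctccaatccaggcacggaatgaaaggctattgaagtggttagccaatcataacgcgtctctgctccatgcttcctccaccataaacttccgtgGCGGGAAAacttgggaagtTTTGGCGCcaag
Hells: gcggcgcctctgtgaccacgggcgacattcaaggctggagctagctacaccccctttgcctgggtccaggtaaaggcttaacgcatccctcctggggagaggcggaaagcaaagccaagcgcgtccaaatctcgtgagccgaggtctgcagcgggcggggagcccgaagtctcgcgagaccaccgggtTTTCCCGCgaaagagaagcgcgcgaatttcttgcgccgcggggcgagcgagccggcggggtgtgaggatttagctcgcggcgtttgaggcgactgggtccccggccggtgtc

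The Mcm5 window holds an overlapping pair of words that begin 153 and 149 bases before the gene start, and the Mcm6 window holds 3 words, the first 110 bases and the last 47 bases before the start. In Mcm3 both words lie 19 and 38 bases after the start, and in Hells the word begins 62 bases before it. At least 1 of the words occurred in 744 of all 32851 windows, which is 2.26%. Singly, they occurred in 1.07% (TTTCCCGC), 0.323% (TTTCGCGC), 0.441% (TTTGCCGC) and 0.514% (TTTGGCGC). By gene, they occurred in 7 of the 10 S phase rule genes, in 1 of 9 G2 and M rule genes with a window, and in 704 of all 27025 genes of the table. Among the genes compared below they occurred in 29 of 156 higher, 1 of 36 lower and 228 of 4791 measured genes that have a window. None of the words lies in the windows of Mcm2, Pcna, Rpa2, Dut, E2f1 and Ung. The Dut, E2f1 and Cdc6 windows, placed by RefSeq starts, lie wholly inside these genes by the gene coordinates used here. The sequence before the starts of those coordinates was therefore not searched for Dut, E2f1 and Cdc6. By the same coordinates, the words before the RefSeq starts of Cdc6, Hells and Uhrf1 lie inside those genes, and they are counted above. A word is a match of letters and not a site known to be bound.

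Set against set-negative cells, S phase cells carried more RNA for many steps of DNA copying, from origin loading to Okazaki fragment joining. With at least 200 UMIs required over both classes, 6169 genes were measured, leaving out the rule genes. Of these, 197 (3.19%) were at least 1.5-fold higher in S phase cells in both libraries and 49 (0.794%) were at least 1.5-fold lower. The median gene had a log2 ratio of 0.05 medial and 0.03 lateral. A gene that is low in set-negative cells reaches the minimum through S phase cells. For the lists of replication and cycle genes, counts are therefore given also with at least 100 UMIs required in set-negative cells. Over all genes, that minimum left 7321 measured, of which 228 were higher and 94 lower. Levels summed over every member of a list stand beside the list's counts. Mcm2, Gins2, Cdt1, Lig1, Rpa2, Ung, Topbp1 and Ezh2, named below, fell short of those 100 UMIs. They were measured only because of their UMIs in S phase cells, and their ratios are to be read with that limit.

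Genes for the replicative helicase and its loading were higher. Of 25 genes of this list outside the rule, 10 were measured, 7 were higher and 0 lower. With the minimum set in set-negative cells 4 of 9 were higher, with median log2 ratios of 0.85 medial and 0.445 lateral. Summed over all 25, the level was 632 CPM in S phase cells against 198 CPM in set-negative cells of the medial library, and 627 against 200 CPM in the lateral.
Mcm2, a helicase subunit (GRCm38 chr6:88883474-88898780, minus strand), stood at 48.1 CPM in medial and 53.0 CPM in lateral S phase cells, against 5.61 and 5.81 CPM in set-negative cells. Its log2 ratio was 3.10 (2.5 to 3.71) medial and 3.19 (2.62 to 3.78) lateral. Mcm3, another subunit, stood at 93.3 and 109 CPM in S phase cells, against 17.0 and 18.6 CPM in set-negative cells. Gins2, part of the active helicase, had log2 ratios of 2.69 medial and 2.59 lateral. The licensing factor Cdt1 and its inhibitor Gmnn, geminin, were both higher, at 2.09 and 2.45 medial and 2.61 and 2.53 lateral. Mcm4 and Mcm7 did not reach the minimum; Mcm4 stood at 30.9 and 25 CPM in S phase cells, against 3.10 and 3.97 CPM in set-negative cells, and Mcm7 at 29.4 and 46.8 CPM against 4.43 and 2.29 CPM.

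Polymerases, the clamp and fork proteins formed the largest group. Of 40 genes, 21 were measured and 17 were higher, none lower. With the minimum set in set-negative cells 16 of 21 were higher, with medians of 1.31 medial and 1.08 lateral. Summed over the list, the level was 1827 CPM in S phase cells against 856 CPM in set-negative cells of the medial library, and 1744 against 832 CPM in the lateral.
Pcna, the sliding clamp, stood at 147 CPM in medial and 116 CPM in lateral S phase cells, against 37.5 and 31.9 CPM in set-negative cells. The ratio was 1.97 (1.70 to 2.24) medial and 1.86 (1.57 to 2.15) lateral. Since 17.6% of the 57-base windows of its transcripts occur in other genes, counting may have split reads with near copies of Pcna. The share was 28.3% for Hist1h2bc, 25.3% for Cycs, 17.8% for Stmn1, 16.3% for H2afz, 15.4% for Mcm7, 13.2% for Uhrf1, 13.1% for Ran and 10.7% for Spp1, which are uncertain in the same way. Lig1, the ligase that joins Okazaki fragments, stood at 71.0 and 56.2 CPM in S phase cells, against 5.02 and 5.50 CPM in set-negative cells. Fen1, the flap nuclease of the same step, stood at 42.3 and 53.7 CPM, against 11.4 and 8.56 CPM.
Fork protection and clamp loading genes were higher too. Tipin, which with Timeless steadies the fork, had log2 ratios of 2.97 (2.56 to 3.39) medial and 2.70 (2.30 to 3.11) lateral. Rpa2 and Rpa1, which coat single-stranded DNA, had 2.70 and 1.99 medial, and 2.84 and 2.23 lateral. Rfc2 of the clamp loader stood at 101 and 94.2 CPM in S phase cells, against 36.0 and 33.3 CPM in set-negative cells.

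**Figure D2:**
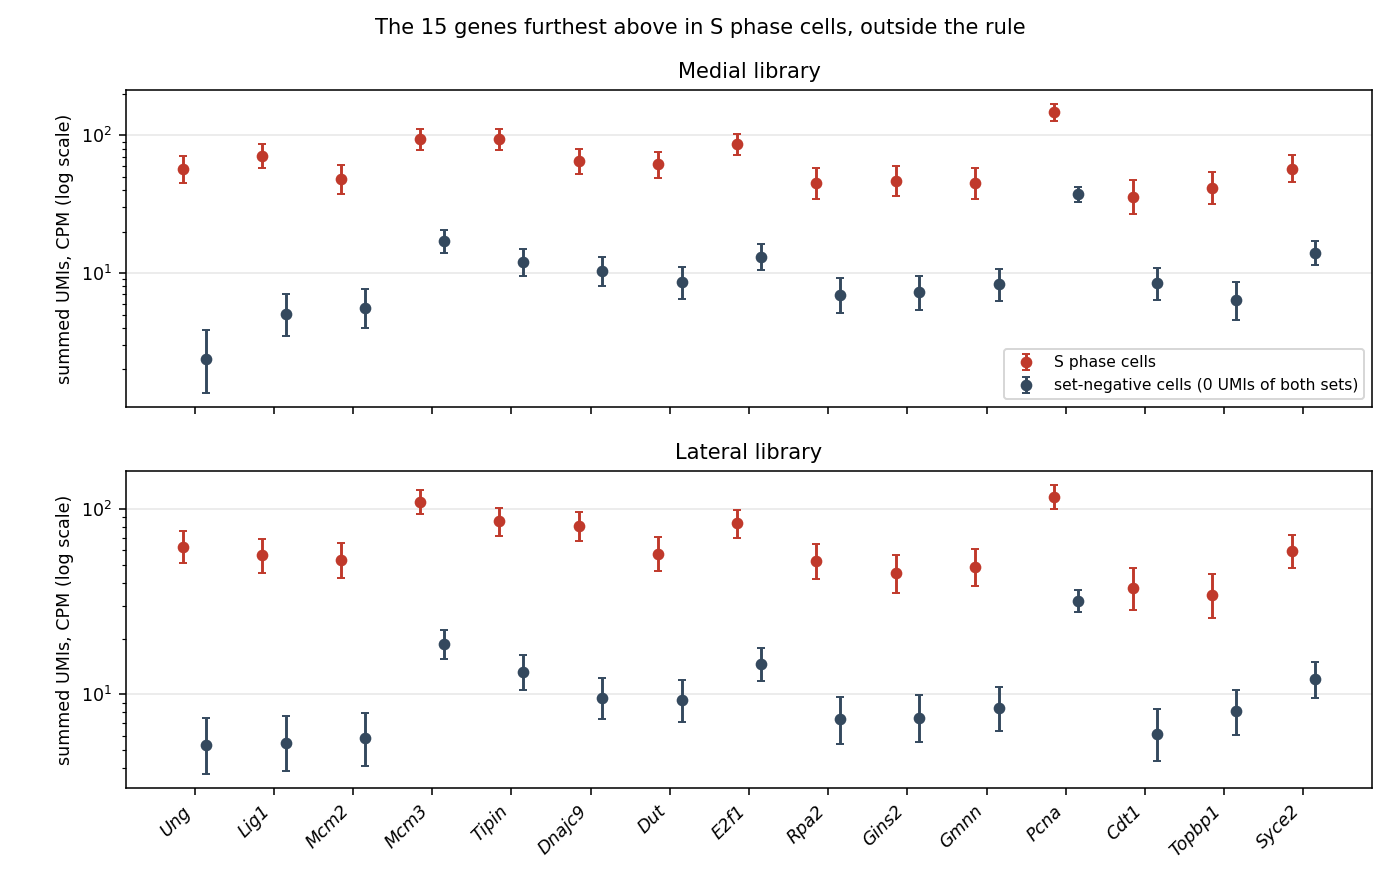
Level in CPM, on a logarithmic axis, of 15 genes outside the rule in S phase cells and in set-negative cells, medial library above and lateral below, with 95% exact Poisson intervals for counting error. Each gene shown lies higher in S phase cells in both libraries, with Pcna at 147 against 37.5 CPM in the medial library. Ung, Lig1, Mcm2, Rpa2, Gins2, Cdt1 and Topbp1 did not reach 100 UMIs in set-negative cells and were measured only through S phase cells.

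Nucleotide supply was higher in part. Of 35 genes, 22 were measured, 9 were higher and 0 lower. With the minimum set in set-negative cells 9 of 25 were higher, with medians of 0.59 medial and 0.54 lateral. Summed over the list, S phase cells held 1516 CPM against 899 CPM in set-negative cells of the medial library, and 1456 against 918 CPM in the lateral.
Dut, which destroys dUTP, stood at 61.7 and 57.4 CPM in S phase cells, against 8.56 and 9.32 CPM in set-negative cells. Dtymk, thymidylate kinase, had ratios of 1.70 medial and 1.38 lateral, and Dctpp1, which breaks down dCTP, 1.15 and 0.92. Rrm1, the large subunit of ribonucleotide reductase, did not reach the minimum and stood at 28 and 32.4 CPM in S phase cells, against 3.25 and 3.06 CPM in set-negative cells.

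Replication stress and repair genes were higher in part. Of 56 genes, 14 were measured, 4 were higher, namely Ung, Topbp1, Usp1 and Apex1, and 0 lower. When the minimum was set in set-negative cells, 2 of 12 were higher, with medians of 0.37 medial and 0.21 lateral. The list summed to 1004 CPM in S phase cells against 620.5 CPM in set-negative cells of the medial library, and 983 against 628 CPM in the lateral. Ung, the uracil DNA glycosylase that removes uracil from new DNA, had the largest ratios of the measured genes named here. It reached the minimum only through S phase cells. Ung (GRCm38 chr5:114130386-114139323, plus strand) stood at 56.7 CPM in medial and 62.4 CPM in lateral S phase cells, against 2.36 and 5.35 CPM in set-negative cells. The log2 ratio was 4.58 (3.80 to 5.46) medial and 3.54 (2.98 to 4.14) lateral. Of the S phase cells 42 medial and 61 lateral ones held a UMI of Ung. After thinning each cell to 2400 UMIs, the shares with a UMI of Ung were 11.6% of medial and 14.0% of lateral S phase cells, against 0.532% and 1.18% of set-negative cells, and free RNA held Ung at 10.3 CPM in both libraries.
Topbp1, which activates the checkpoint kinase ATR, stood at 41.6 and 34.3 CPM in S phase cells, against 6.35 and 8.10 CPM in set-negative cells. Usp1, which removes ubiquitin from PCNA, stood at 55.3 and 58.0 CPM, against 16.4 and 18.5 CPM.

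Chromatin assembly genes were higher, and replication-linked histones were not. Of 26 assembly and DNA methylation genes, 17 were measured, 11 were higher and 0 lower. Under the minimum in set-negative cells, 10 of 16 were higher, with medians of 0.78 medial and 0.74 lateral. The list summed to 1971 CPM in S phase cells against 1147 CPM in set-negative cells of the medial library, and 1923 against 1188 CPM in the lateral. Nasp, which stores H3 and H4, stood at 49.5 and 36.2 CPM in S phase cells, against 13.3 and 12.2 CPM in set-negative cells. Ezh2, the methyltransferase of Polycomb, had ratios of 2.87 (2.26 to 3.48) medial and 1.98 (1.42 to 2.53) lateral. Slbp, which binds the stem-loop of histone mRNAs, stood at 114 and 106 CPM in S phase cells, against 45.8 and 48.3 CPM in set-negative cells. Outside the list, Dnajc9, a histone chaperone with heat shock function, stood at 65.3 and 80.5 CPM, against 10.3 and 9.63 CPM.
Among 57 replication-linked histone genes 3 were measured, 0 higher and 2 lower, Hist1h1c and Hist1h2bc, and 2 of 4 were lower with the minimum set in set-negative cells. Their summed level was 185 CPM in S phase cells against 270 CPM in set-negative cells of the medial library, and 140 against 262 CPM in the lateral. The messages of these histones mostly lack a poly(A) tail, and the 3′ libraries are primed on such tails, so the UMIs are not a measure of histone mRNA as a whole. Hist1h1c and Hist1h2bc were not lower in both libraries with 0 G2 and M UMIs required, or among cells of 12000 to 20000 UMIs. After thinning Hist1h1c was not either. Of 7 measured histone variants 1 was higher under either minimum, H2afz, at 832 and 855 CPM in S phase cells against 517 and 546 CPM in set-negative cells.

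Control of the G1 to S step was higher in a few genes. Of 43 genes, 16 were measured, 5 were higher and 1, Cdkn1b, was lower, and with the minimum set in set-negative cells 5 of 21 were higher and 1 lower. The list summed to 1237 CPM in S phase cells against 1011 CPM in set-negative cells of the medial library, and 1199 against 1025 CPM in the lateral. E2f1, an activating E2F (GRCm38 chr2:154559407-154569892, minus strand), stood at 86.1 CPM in medial and 83.6 CPM in lateral S phase cells, against 13.1 and 14.5 CPM in set-negative cells. Its ratio was 2.71 (2.30 to 3.12) medial and 2.53 (2.14 to 2.92) lateral. UMIs of E2f1 were seen in 50 of 95 medial and 77 of 129 lateral members. After thinning, the shares were 17.9% and 19.4% of S phase cells, against 2.39% and 2.60% of set-negative cells. Free RNA held E2f1 at 31.2 CPM medial and 31.7 CPM lateral.
Cdk2, the kinase partner of cyclin E, had ratios of 1.14 medial and 1.22 lateral. The cyclin genes Ccne1 and Ccne2 did not reach the minimum: Ccne1 stood at 17.2 and 9.98 CPM in S phase cells, against 1.77 and 1.22 CPM in set-negative cells, and Ccne2 at 10.0 and 11.9 CPM, against 0.886 and 0.306 CPM. Ccnd1, cyclin D1, had ratios of 0.88 medial and 0.78 lateral, which were 0.31 and 0.45 once set-negative cells were weighted to the depths of S phase cells. Cdkn1a, the inhibitor p21, was not past the fold, at 299 and 229 CPM in S phase cells against 384 and 332 CPM in set-negative cells.

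Other growth lists were higher to a lesser degree. Of 11 measured cohesin and condensin genes 5 were higher, among them the condensin subunits Smc2, with ratios of 2.45 medial and 2.01 lateral, and Smc4, with 1.37 and 1.59. Of 41 measured genes of ribosome biogenesis and translation growth 8 were higher, and of 29 splicing and RNA export genes 7, none lower in either. With the minimum set in set-negative cells the counts were 5 of 11, 8 of 43 and 7 of 29. Ran, the GTPase of nuclear transport, stood at 499 and 492 CPM in S phase cells, against 253 and 260 CPM in set-negative cells. Stmn1, which destabilises microtubules, had ratios of 1.48 medial and 1.36 lateral.
Syce2, a component of the meiotic synaptonemal complex by its known role, stood at 57.4 and 59.3 CPM in S phase cells, against 14.0 and 12.1 CPM in set-negative cells. Il12b, the p40 chain of interleukin 12, was also above the fold, at 65.3 and 61.2 CPM against 16.5 and 23.4 CPM, but 7 S phase cells in each library held all its UMIs. After thinning, Il12b was seen in 2.11% of medial and 3.10% of lateral S phase cells, against 1.86% and 3.07% of set-negative cells.

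**Figure D3:**
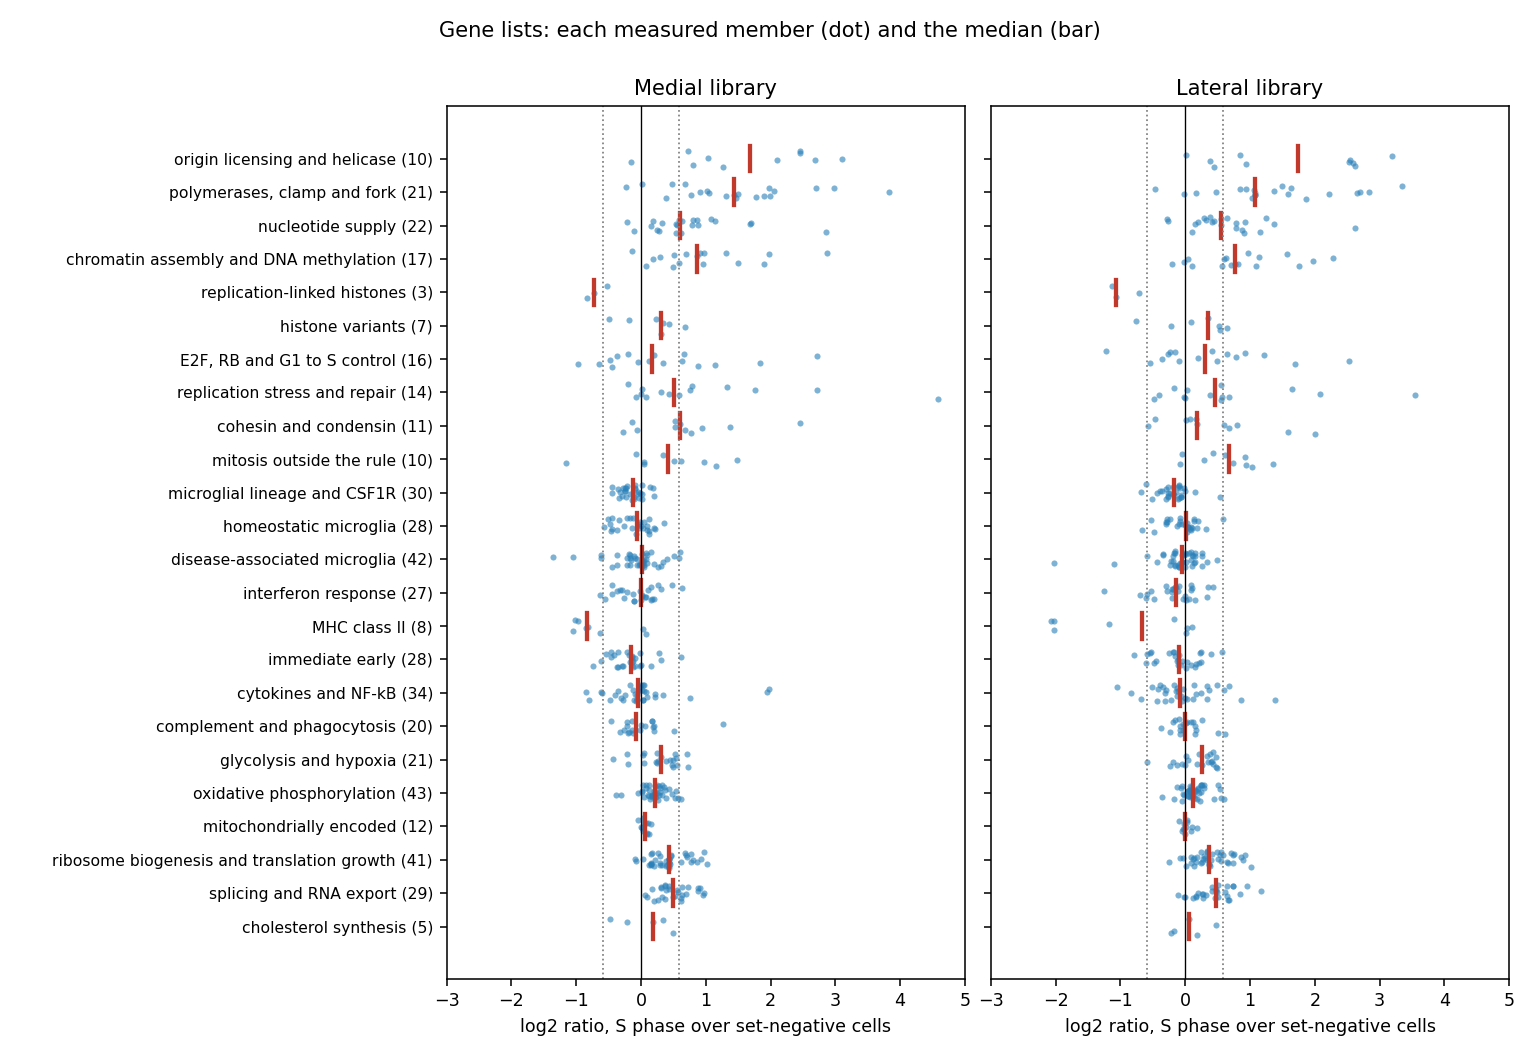
Log2 ratio of S phase cells over set-negative cells for the measured genes of each list, 1 point per gene and a bar at the list's median, medial left and lateral right; dotted lines mark the 1.5-fold limits. Microglial lineage genes lie around medians of -0.12 and -0.18; the licensing genes shown include some that reached the minimum through S phase cells, and their medians of 1.68 and 1.74 are 0.85 and 0.445 with the minimum set in set-negative cells.

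Depth was matched in 2 ways. With set-negative cells weighted to the UMI depths of the S phase cells, 186 genes were higher, of which 126 were among the 197, and with only cells of 12000 to 20000 UMIs compared 203 were, of which 125 were among the 197. The weighting rests in its deepest bin on 11 medial and 17 lateral set-negative cells. Ung then had ratios of 4.77 medial and 3.82 lateral under weighting, and 4.73 and 3.0 among cells of 12000 to 20000 UMIs. Mcm2 had 3.10 and 2.64 under weighting and 3.0 and 3.46 at matched depth, and Lig1 3.93 and 3.40, and 3.42 and 3.24. Under weighting 7 helicase and licensing genes, 15 polymerase and fork genes, 11 chromatin assembly genes and 6 nucleotide supply genes were higher, and among cells of 12000 to 20000 UMIs 7, 16, 10 and 4.

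The genes lower in S phase cells were fewer and their depth mattered more. Lag3, a checkpoint receptor that binds MHC class II (GRCm38 chr6:124904361-124911705, minus strand), stood at 48.8 CPM in medial and 67.4 CPM in lateral S phase cells, against 129 and 150 CPM in set-negative cells. The ratio was -1.40 (-1.78 to -1.05) medial and -1.16 (-1.46 to -0.87) lateral. It was -1.02 and -1.30 with set-negative cells weighted by depth, and -0.99 and -1.49 among cells of 12000 to 20000 UMIs.
Itgax, the integrin chain CD11c, stood at 18.7 and 13.1 CPM in S phase cells, against 48.0 and 28 CPM in set-negative cells, with UMIs in 16 medial and 15 lateral S phase cells. Its ratio was -1.36 medial and -1.09 lateral, and -1.22 and -1.17 under weighting. Spp1, osteopontin, stood at 3021 and 3797 CPM in S phase cells, against 4638 and 5744 CPM in set-negative cells. Its ratio was -0.62 (-0.67 to -0.57) medial and -0.60 (-0.64 to -0.56) lateral, -0.80 and -1.30 under weighting, and -0.36 and -0.50 where every cell counted alike.
Dusp1, a phosphatase that shuts off MAP kinases, had ratios of -0.75 medial and -0.60 lateral, and -0.85 and -1.01 under weighting. Il1rn, the interleukin 1 receptor antagonist, had -0.80 and -1.06, and -0.60 and -1.01 under weighting. Cdkn1b, the inhibitor p27, stood at 20.8 and 15 CPM in S phase cells, against 32.8 and 34.8 CPM in set-negative cells. Its ratios of -0.66 medial and -1.22 lateral came to -0.33 and -0.24 under weighting, where Cdkn1b was not past the fold in either library. Apoc1, an apolipoprotein of lipid transport, had -0.75 and -0.88, and -0.12 and -0.75 under weighting. After thinning to 2400 UMIs, Itgax, Spp1 and Dusp1 were no longer past the fold in both libraries. With 0 G2 and M UMIs required of S phase cells, Itgax, Spp1, Dusp1, Il1rn and Cdkn1b were not. Lag3 stayed past the fold in both libraries under each of these settings.

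MHC class II genes, which present antigen, were lower in both libraries with all cells counted. Of 8 measured genes 4 were lower, with medians of -0.84 medial and -0.67 lateral. With the minimum set in set-negative cells 4 of 9 were lower, with medians of -0.82 and -0.18. Summed over the list, the level was 1238 CPM in S phase cells against 2059 CPM in set-negative cells of the medial library, and 721 against 1481 CPM in the lateral. G2 or M cells summed to 839 CPM medial and 1047 CPM lateral, so a level below that of set-negative cells was not particular to S phase cells. Cd74, the invariant chain, stood at 505 CPM in medial and 162 CPM in lateral S phase cells, against 1049 and 660.2 CPM in set-negative cells.
A single medial S phase cell held 389 of the 704 Cd74 UMIs of its class, and 111 of the 161 of H2-Aa. Without the S phase cell richest in MHC class II in each library, the Cd74 ratio was -2.20 medial and -2.17 lateral, and H2-Aa had -2.53 and -2.44. Under depth weighting, Cd74 had -0.45 medial and -2.33 lateral and H2-Aa -0.22 and -2.44, so the medial values were not past the fold and 0 of the list was lower in both libraries. After thinning, 4 of 95 medial S phase cells held at least 10 MHC class II UMIs, against 77 of 752 set-negative cells. In the lateral library 2 of 129 S phase cells did, against 48 of 846 set-negative cells. Among G2 or M cells 8 of 325 medial and 10 of 396 lateral ones did. How far depth and that 1 cell shape the medial value was not tested beyond these settings.

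**Figure D4:**
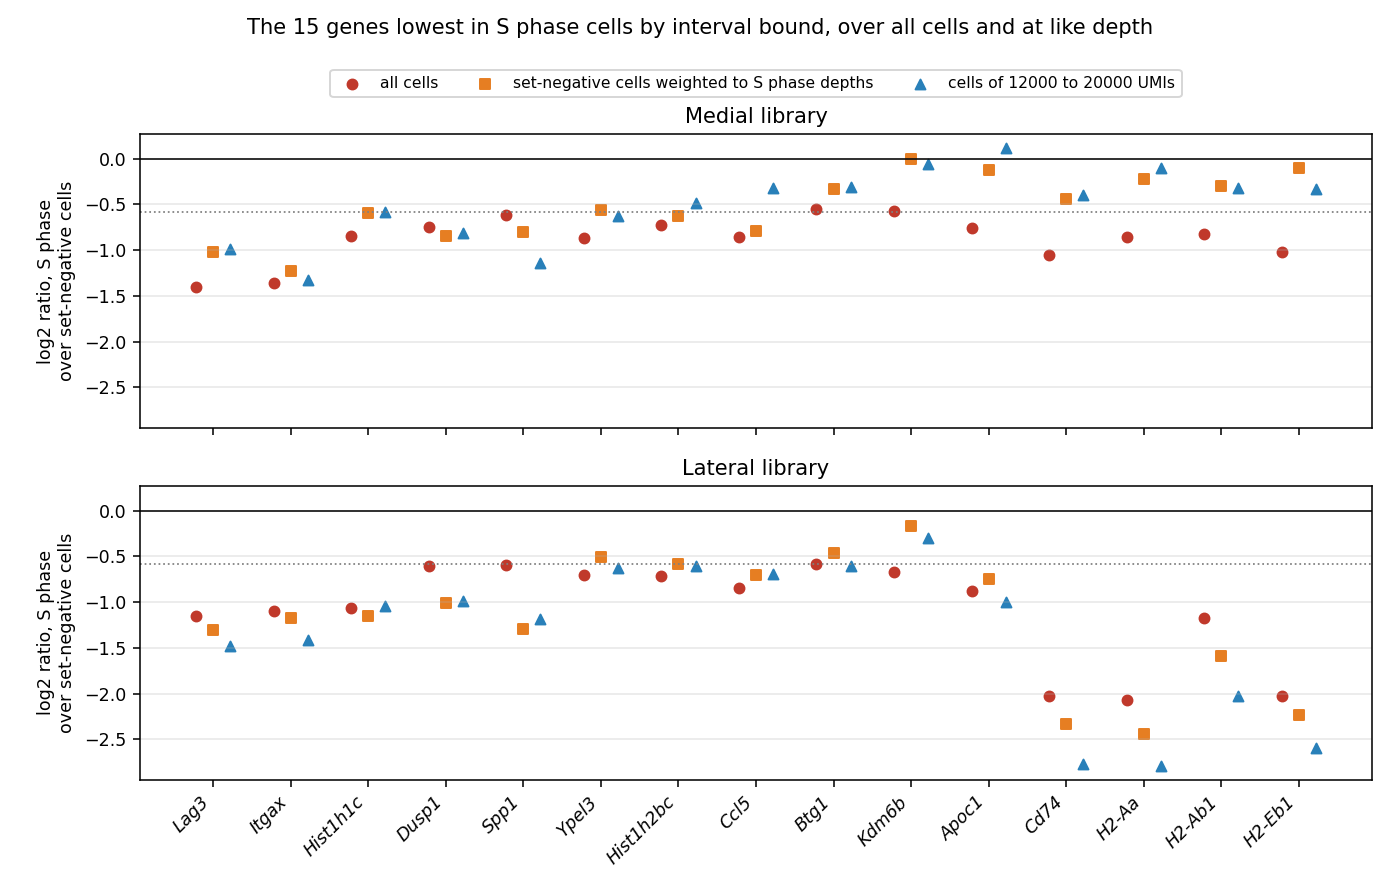
Log2 ratio of S phase cells over set-negative cells for the 15 genes lowest by interval bound, medial library above and lateral below, with all cells, with set-negative cells weighted to S phase depths, and with cells of 12000 to 20000 UMIs only; the dotted line marks 1.5-fold lower. Lag3 and Itgax lie below it in both libraries, while the medial values of Cd74 and H2-Aa at like depth do not.

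Microglial identity was near that of set-negative cells. Of 30 measured genes of microglial lineage and CSF1R, and of 28 homeostatic genes, 0 were higher and 0 lower in both libraries. Csf1r, the receptor that microglia need to survive, stood at 902 CPM in medial and 960 CPM in lateral S phase cells, against 1070 and 1003 CPM in set-negative cells. P2ry12, a purinergic receptor of resting microglia, stood at 399 and 459.9 CPM, against 435 and 475 CPM, and Cx3cr1, the fractalkine receptor, at 369.6 and 389 CPM, against 348 and 384 CPM. Tmem119, a microglial surface protein, was at 601 and 632 CPM, against 471 and 421 CPM, with ratios of 0.35 (0.24 to 0.46) and 0.59 (0.48 to 0.69).
Of 42 measured genes of the disease-associated state 3 were lower, Itgax, Spp1 and Cd74, and 0 higher, with medians of 0.01 medial and -0.05 lateral. Lpl and Igf1, lipoprotein lipase and a growth factor of that state, had ratios of 0.26 and 0.06 for Lpl and 0.02 and -0.16 for Igf1. None of 27 measured interferon response genes was past the fold in the same direction in both libraries. When the minimum was set in set-negative cells, 2 of 31 were lower, Ifit1 and Slfn5, which were named after their values were seen. The counts for the lineage, homeostatic and disease-associated lists were then 0 of 31, 0 of 29 and 3 of 42.

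The 12 microglia markers summed to 18811 CPM in medial and 19564 CPM in lateral S phase cells, against 19502 and 18818 CPM in set-negative cells, with 0 of 12 at 0. The 10 border macrophage markers summed to 75.3 and 61.2 CPM, against 86.4 and 63.0 CPM, with Lyve1, Cd163 and Cd209f at 0 UMIs in all these cells and Mrc1 at 1 UMI in S phase cells. Of the monocyte markers Ly6c2 and Chil3 were at 0 throughout, and Fn1 made up most of the sum of 91.1 and 119 CPM, against 96.6 and 87.7 CPM. Of the oligodendrocyte markers Mog, Mobp, Cldn11, Ermn and Opalin were at 0, and Trf made up most of the sum of 665 and 643 CPM, against 937 and 809 CPM. Mbp, myelin basic protein, stood at 10.8 and 13.1 CPM in S phase cells, against 11.1 and 10.7 CPM in set-negative cells. Oligodendrocyte precursor markers summed higher in S phase cells, at 20.8 and 19.3 CPM against 9.60 and 11.8 CPM, and so did mural cell markers, at 18.7 and 18.1 CPM against 9.60 and 11.5 CPM. Both lists hold Cspg4, a membrane proteoglycan, which gave most of these UMIs at 17.2 and 17.5 CPM in S phase cells, against 8.86 and 10.5 CPM in set-negative cells. Pdgfra, Olig1, Olig2 and Sox10 were at 0 in all these cells, as were Rgs5, Tagln and Myh11. The part of such cells in the results was not tested.

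Against G2 or M cells, S phase cells held much less RNA of mitotic genes, by the choice of both classes. The depths were close here, with medians of 14561 medial and 12426 lateral UMIs in S phase cells, against 13491 and 12064.5 in G2 or M cells. Over 5787 measured genes, 9 (0.156%) were at least 1.5-fold higher in S phase cells in both libraries and 212 (3.66%) lower. Of the G2 or M cells 172 medial and 198 lateral ones also met the S phase count, and without them 130 genes were higher and 140 lower. As G2 or M cells were chosen by their mitotic genes, the mitosis list describes that choice: 49 of its 51 measured genes were lower. Ung stood at 56.7 CPM in medial and 62.4 CPM in lateral S phase cells, against 20.2 and 20.1 CPM in G2 or M cells, with ratios of 1.49 and 1.63. Mcm2 had ratios of 0.71 and 0.81. Of 15 measured helicase and licensing genes 1 was higher and 1 lower, and the list summed to 632 and 627 CPM in S phase cells against 609.7 and 631 CPM in G2 or M cells. Of 30 polymerase and fork genes 1 was higher and 3 lower, with sums of 1827 and 1744 CPM against 2114 and 2161 CPM. Of 22 chromatin assembly genes 0 were higher and 7 lower, with sums of 1971 and 1923 CPM against 3147 and 3259 CPM. Of 24 G1 to S control genes 0 were higher and 9 lower, with sums of 1237 and 1199 CPM against 1901 and 2048 CPM. Nucleotide supply, splicing and ribosome biogenesis genes were higher in 0 of 24, 0 of 29 and 0 of 41. Those lower numbered 2, 4 and 0. So the higher levels of these lists over set-negative cells were not particular to S phase cells. Sdc4, a cell surface proteoglycan, stood at 205 and 152 CPM, against 136 and 97.7 CPM in G2 or M cells, and Dnajb9, a chaperone of the endoplasmic reticulum, at 71.8 and 61.2 CPM, against 43.1 and 36.7 CPM.
Lower in S phase cells was Ccna2, cyclin A2, at 7.89 and 1.87 CPM against 101 and 116 CPM in G2 or M cells. Mki67, a proliferation marker, stood at 23.7 and 17.5 CPM, against 123 and 147 CPM. Cdca3, which triggers mitotic entry, stood at 7.18 and 4.37 CPM, against 129 and 152 CPM. Of 7 measured replication-linked histones 6 were lower in S phase than in G2 or M cells, and of 15 cohesin and condensin genes 8. Microglial lineage, homeostatic and disease-associated genes were past the fold in 0 of 29, 0 of 28 and 0 of 41.

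Along the cycle classes defined by both gene sets, replication genes showed 2 patterns. The classes are set-negative cells, S phase cells with 0 UMIs of the G2 and M set, S phase cells with 1 or 2, cells that met both counts, and G2 or M cells without the S phase count. Ung peaked among S phase cells: its medial levels in that order were 2.36, 36.5, 65.1, 31.0 and 2.88 CPM, and its lateral levels 5.35, 45.5, 71.2, 31.4 and 3.41 CPM. E2f1 had medial levels of 13.1, 58.4, 97.7, 80.8 and 16.7 CPM, and lateral levels of 14.5, 72.8, 89.3, 85.7 and 12.7 CPM, so S phase cells with 1 or 2 G2 and M UMIs and cells that met both counts were close. In the last class both stood near their level in set-negative cells. Set-negative cells hold 0 S phase UMIs and the last class fell short of the S phase count. Low values at both ends therefore describe that choice in part.
Other genes were highest in cells that met both counts. Rrm1 stood at 3.25, 24.3, 29.5, 77.9 and 10.4 CPM in the medial library, and at 3.06, 27.3, 35.1, 76.4 and 19.5 CPM in the lateral. Cks1b, a small subunit of cyclin kinases, stood at 18.0, 53.6, 69.2, 249 and 94.4 CPM medial, and 18.9, 40, 72.2, 278 and 170 CPM lateral. H2afz stayed high into the last class, at 517, 750, 867, 2483 and 1614 CPM medial, and 546, 823, 872, 2504 and 2106 CPM lateral.
Pcna peaked with both counts as well in both libraries, at 230.3 CPM medial and 207 CPM lateral. The linker histone Hist1h1b was close to 0 in S phase cells, at 0 and 3.05 CPM in the medial pair of S phase classes, and stood at 30.6 CPM in cells that met both counts.

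**Figure D5:**
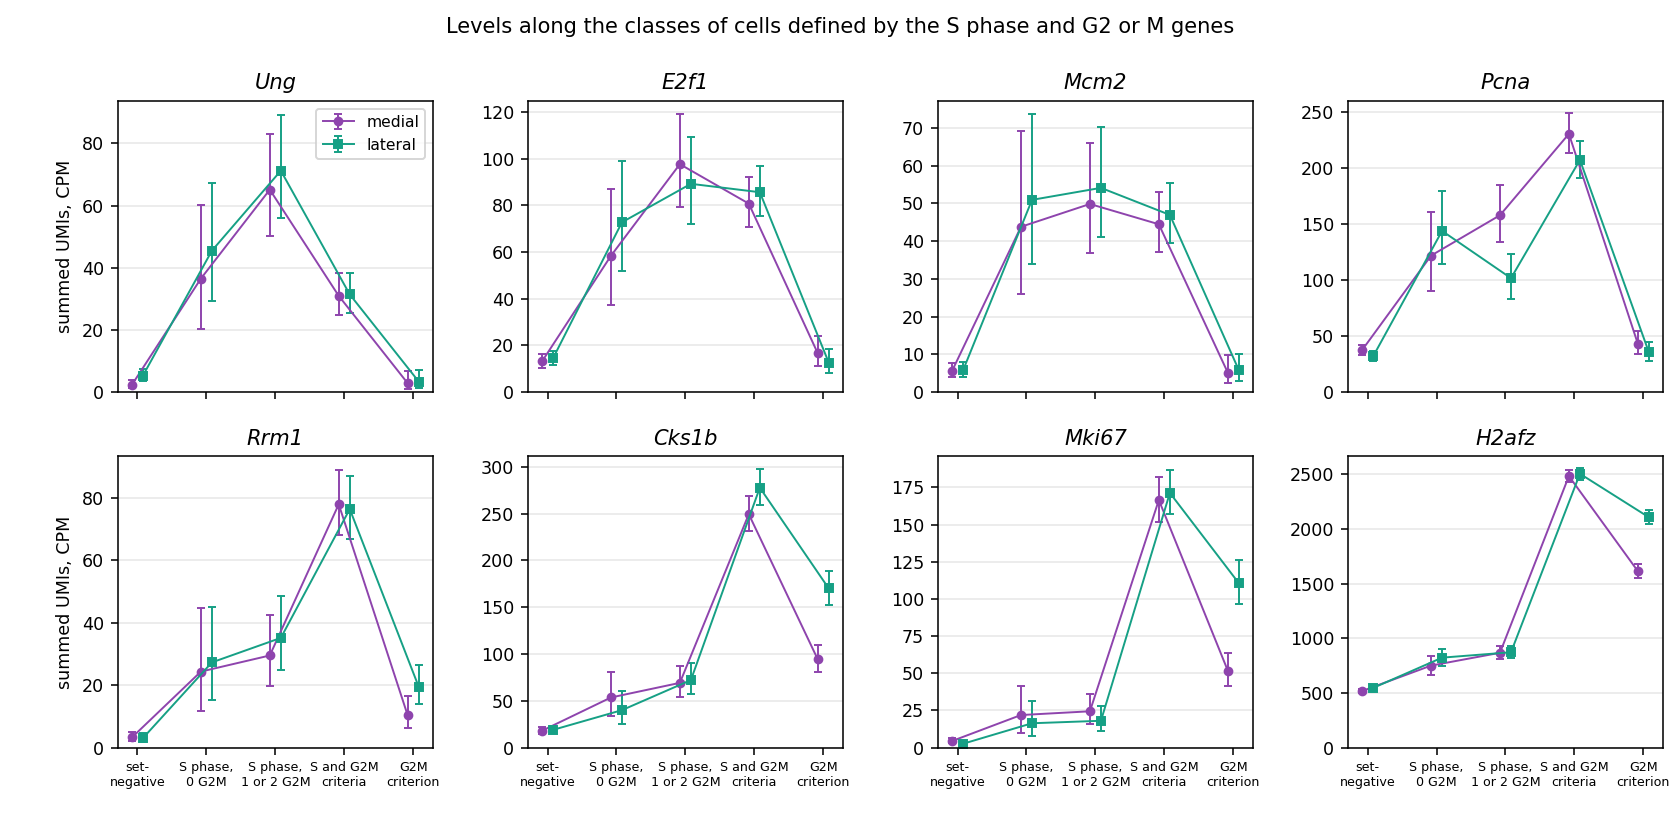
Level in CPM of 8 named genes, 1 panel each with its own axis, across the cycle classes from set-negative cells to G2 or M cells without the S phase count; medial and lateral libraries are separate lines with 95% exact Poisson intervals. Ung is highest in S phase cells, and Cks1b and Mki67 in cells that met both counts. E2f1 is highest in the S phase cells that held UMIs of the G2 and M set, close to its level in cells that met both counts.

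Medial and lateral S phase cells were close for replication genes. Of 3543 genes with at least 100 UMIs in S phase cells, 63 (1.78%) were at least 1.5-fold higher in the medial and 25 (0.706%) lower, and these numbers compare 95 with 129 cells of 1 library each. Helicase and licensing genes summed to 632 CPM in medial against 627 CPM in lateral S phase cells, and polymerase and fork genes to 1827 against 1744 CPM. Of the 8 measured helicase and licensing genes 0 were higher and 1 lower, and of 19 polymerase and fork genes 0 were past the fold in either direction.
Immune genes differed more. Of 6 measured MHC class II genes 4 were higher in medial S phase cells, with H2-Aa at 116 CPM medial against 34.3 CPM lateral, and most of the medial UMIs in the 1 cell described above. Cxcl1, a neutrophil chemokine, stood at 121 CPM medial against 30.0 CPM lateral, with 62.1% of the medial UMIs in 1 cell. Ccl3, a chemokine for macrophages, stood at 1186 CPM medial against 615 CPM lateral, a log2 ratio of 0.95 (0.83 to 1.06), and the same ratio among set-negative cells was 0.51.
Tnfsf9, the ligand of 4-1BB, stood at 78.9 CPM medial against 143 CPM lateral, a ratio of -0.86 (-1.20 to -0.52), against -0.35 among set-negative cells. Phlda1, an early response gene, stood at 47.4 CPM medial against 78.6 CPM lateral, a ratio of -0.73 (-1.18 to -0.29), against 0.45 among set-negative cells.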

How the data were processed

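Tissue was dissociated and sorted microglia went without culture into 10x Chromium 3′ libraries, with 57-base transcript reads, per the labels' protocols. The deposited files hold raw UMI counts, whole numbers per gene and barcode with no normalisation. Cell Ranger 2.0.1, STAR and the build mm10 were used, per the submitters' processing notes, while no gene annotation version is named there. Of 27998 gene IDs 27722 (99.0%) occur in GENCODE M21, which gave the coordinates, and 56 symbols with several IDs were summed.

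Barcodes were kept from 2400 UMIs and 300 genes upward when mitochondrial UMIs made up 10% or less, a limit that removed 3 in each library. The depth of each class sets its precision, so CPM values carry exact Poisson, ratios exact conditional binomial and shares Clopper-Pearson 95% intervals. A gene counts as higher or lower when it is at least 1.5-fold so in both libraries, a rule of size and not a test. The scripts were tested on simulated data. Python 3.11.15, numpy 2.4.6, scipy 1.17.1, pandas 2.3.3, scanpy 1.11.5 (Scrublet, expected rate 0.05) and matplotlib 3.10.9 were used.

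The members, 24 gene lists and 17 marker lists were chosen with earlier results of these data known. Named genes were the 15 with the highest and the 15 with the lowest interval bound nearest 1, without the rule genes, sex-linked, mitochondrial or ribosomal protein genes and gene models that have no name. The 2 farthest members of each list in each direction and its most abundant member were added, as were 5 each way against G2 or M cells and between regions, and a set given always; not all are printed. Fen1, Rpa1, Rfc2, Usp1, Apex1, Nasp, Slbp, Cdk2, Dctpp1, Hist1h1b, Ifit1 and Slfn5 are printed as well, though that choice did not bring them in. Alternatives changed the minimum, scaling, weighting, depth, rule and fold.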

Additional observations from a re-analysis of the deposited data

Results flagged for a closer look

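Ccl3, a macrophage chemokine, had intervals on opposite sides of 0 in the 2 libraries. It stood at 1186 CPM in medial S phase cells against 1109 CPM in medial set-negative cells, a log2 ratio of 0.10 (0.02 to 0.17), and at 615 CPM in lateral S phase cells against 777 CPM in lateral set-negative cells, a ratio of -0.34 (-0.44 to -0.24). Phlda1, an early response gene, did the opposite, at 47.4 against 69.1 CPM in the medial library, a ratio of -0.55 (-0.94 to -0.17), and 78.6 against 50.4 CPM in the lateral, a ratio of 0.64 (0.33 to 0.94). The difference between the libraries was not tested for either gene.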

How the results depend on the processing

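No paired analysis was possible because each region has 1 library. Main counts for S phase over set-negative cells were 197 higher and 49 lower. A minimum of 100 UMIs gave 320 and 105 (11 licensing genes), 500 gave 78 and 20 (licensing 1, polymerase and fork 5, nucleotide 4, chromatin 6), and none gave 838 and 1162 (17, 34, 16 and 19). Weighting set-negative cells by depth gave 3 ribosome biogenesis and 0 MHC class II genes. Thinning to 2400 UMIs gave 313 and 242, with 14 ribosome biogenesis genes. Against all other kept cells 55 were higher and 28 lower, with nucleotide 2, chromatin 5, ribosome biogenesis 1, splicing 0 and MHC class II 0, and 10 values of 7 genes reversed: H2afz (-0.11 medial, -0.25 lateral), Smc4 (-0.13, -0.39), Stmn1 (-0.072, -0.35), and lateral Cks1b (-0.24), Smc2 (-0.26), Tuba1b (-0.014) and Tubb5 (-0.070); those cells include the G2 or M cells. At least 4 UMIs from 3 genes gave 81 lower and 0 MHC class II genes, with shares of 2.35% and 2.69%, and the rule after thinning gave shares of 1.17% and 1.34%. Requiring 0 G2 and M UMIs gave 142 lower, 4 ribosome biogenesis and 3 splicing genes. The medial library alone gave 452 and 217, the lateral alone 345 and 227, and a fold of 2 gave 52 and 5. Chosen after seeing the data, cells of 12000 to 20000 UMIs gave nucleotide 4, ribosome biogenesis 4 and MHC class II 0, with Apoc1 reversed at 0.12 in the medial library. A minimum of 200 UMIs over all kept cells gave 465 and 140 (12, 28, 14 and 17), and 100 UMIs in set-negative cells gave 94 lower and 4 licensing genes. Over G2 or M cells, 9 higher and 212 lower became 27 and 331 at 100 UMIs, 2 and 93 at 500 UMIs, and, chosen later, 130 and 140 without cells that met the S phase count and 98 and 338 after thinning. Of the 34 named higher and 15 named lower genes, weighting kept 31 and 8, thinning 32 and 10, cells of 12000 to 20000 UMIs 32 and 6, all other cells 20 and 6, 0 G2 and M UMIs 29 and 7, and the rule of 4 UMIs 34 and 7. S phase cells hold a median of 4 UMIs of the rule genes, so depth limits which cells are found. Where a cause is not plain from the setting, it was not tested.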

Other observations

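Metabolic genes were close between S phase and set-negative cells, with small shifts upward. Of 21 measured glycolysis and hypoxia genes 0 were past the fold in both libraries, with median log2 ratios of 0.30 medial and 0.26 lateral. Ldha, lactate dehydrogenase A, stood at 879.8 CPM in medial and 849 CPM in lateral S phase cells, against 541 and 613 CPM in set-negative cells, past the fold in the medial library alone. Of 43 oxidative phosphorylation genes 1 was higher, Cycs, which encodes cytochrome c, with ratios of 0.62 and 0.60 just past the fold and 0.48 and 0.53 under depth weighting. None of 12 measured mitochondrially encoded genes was past the fold, with medians of 0.06 and 0.003.

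Of 20 measured complement and phagocytosis genes 1 was higher, the scavenger receptor Msr1, at 47.4 CPM in medial and 44.3 CPM in lateral S phase cells, against 19.8 and 28.9 CPM in set-negative cells. Its lateral log2 ratio of 0.62 was 0.36 where every cell counted alike, and Msr1 was not past the fold in both libraries there, after thinning, or against all other kept cells. Of 28 measured immediate early genes Dusp1 was lower and 0 were higher. The chemokine Ccl5 stood at 40.9 and 31.2 CPM in S phase cells, against 74.0 and 55.9 CPM in set-negative cells. It was not lower in both libraries after thinning, or among cells of 12000 to 20000 UMIs.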
